A study of Mus musculus with 4 samples.

Results

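The cadherins and protocadherins described here are the genes whose symbols read Cdh or Pcdh followed by a number, with or without a final x or y. In all, 28 such genes were listed in each of 4 mouse hippocampal libraries, 17 cadherins and 11 protocadherins, among 20211 genes listed in all 4. A further 4 symbols of this form, Cdh1, Cdh3, Cdh5 and Cdh26, were missing from the gene list of at least 1 library and are not analysed here. The clustered protocadherins have symbols of another form and do not belong to this set. The rule reads symbols and uses no measured value.

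Cadherins are membrane proteins that hold cells together by binding calcium and, in most cases, a cadherin of the same or a related kind on the next cell. Type I and type II classical cadherins connect through catenins to the actin skeleton. Protocadherins of the delta groups have other cytoplasmic tails and bind more weakly. In the hippocampus, members of both families sit at synapses, and combinations of type II cadherins are known to differ between the principal neurons that contact each other along the circuit from the dentate gyrus to CA3 and CA1.

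The study profiled RNA of single nuclei from the hippocampus of mice that were wild type, lacked monoacylglycerol lipase (MAGL, encoded by Mgll, the enzyme that degrades the endocannabinoid 2-arachidonoylglycerol) in the whole animal, lacked it in astrocytes, or lacked it in neurons. Each genotype had 1 library. The labels and series text do not name the driver of each deletion, the age and sex of the mice or the number of animals pooled. Differences between genotypes therefore have no replicate check, whereas differences between cell classes were measured in all 4 libraries. Values per library are given in the order wild type, total, astrocyte and neuron knockout throughout.

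The libraries held from 8945 to 31243 barcodes and from 81623644 to 193307038 unique molecular identifiers (UMIs, counts of captured RNA molecules). The library labelled total knockout was the shallowest, with a median of 5456 UMIs per barcode against 7448 to 8904 in the others, 23.3% of its nuclei that passed quality limits were called doublets against 2.14% to 5.99%, and none of its nuclei was called female. Across libraries, 1580 of 58693 barcode strings occurred in more than 1 library. Mgll itself was counted in dentate granule nuclei at 121, 104, 143 and 130 UMIs per 1000000 UMIs of the class (CPM) and in astrocytes at 391, 363, 278 and 422 CPM. Mgll stood at 73.0, 54.7, 78.3 and 78.3 CPM in CA1 and at 121, 95.3, 140 and 121 CPM in CA2/CA3 neurons. In MGE and CGE inhibitory neurons, defined below, it stood at 92.2, 86.5, 107 and 102 CPM and at 149, 149, 152 and 128 CPM. The library labelled total knockout was lowest in granule, CA1, CA2/CA3 and MGE neurons. That labelled astrocyte knockout was lowest in astrocytes, and that labelled neuron knockout in CGE neurons. The UMIs of the whole gene did not set the knockout libraries as a group apart from wild type in any of these classes. The labels do not say which part of Mgll was deleted, so this does not check the labels, and the libraries are called by their labels below.

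Nuclei were assigned to a class by marker genes that include no cadherin or protocadherin. The classes were dentate granule (7994 nuclei), CA1 (5664), CA2/CA3 (3100), subicular or cortical excitatory (3579), inhibitory neurons of the medial (MGE, 3501) and caudal (CGE, 2523) ganglionic eminence type, astrocytes (278), oligodendrocytes (1949) and oligodendrocyte precursors (1012). A further 1140 inhibitory nuclei met the limits of neither eminence type, which ask for markers of 1 type at no less than 2 times those of the other. They formed a class that entered the fit in place of the precursors, which makes 9 fitted classes, but no contrast. Of the markers of each of these classes, between 8 of 11 and all lay at least 2-fold above the mean of the other classes in every library. The same markers had assigned the nuclei, so this largely follows from the rule and does not test the classes. In all, 37.4% of nuclei stayed without a class. Of the CA1 nuclei, 2498 passed the marker rule but not a stricter form of it, which is the largest number of any class. Of the subicular or cortical nuclei 1746 did so, a larger share of their class. Levels are UMIs summed over the nuclei of a class and library, as CPM of that sum. They compare 1 gene between classes, not genes with each other, since gene length differs.

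All 28 genes are annotated as protein coding in GENCODE release M21 on GRCm38, the build that the submitters' processing notes name as mm10. The set is spread over several chromosomes with some neighbours. On chromosome 15 the 5 type II cadherins stand in the order Cdh6, Cdh9, Cdh10, Cdh12 and Cdh18, and on chromosome 1 stand Cdh20, Cdh7 and Cdh19. Chromosome 14 holds Cdh24 and the protocadherins Pcdh8, Pcdh17, Pcdh20 and Pcdh9, and the X chromosome holds Pcdh11x and Pcdh19. In that release 15 of the 28 overlap another gene that the libraries list, such as Gm15680 within Cdh8 (5085 UMIs over the classified nuclei) and Gm15398 opposite Pcdh15 (4559 UMIs). Whether counting used strand is not stated, so small parts of these genes' counts could be shared.

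Cdh6 (chr15:13028701-13173675, minus strand) and Cdh9 (chr15:16728756-16857094, plus strand) carried the widest contrasts between granule and CA1 neurons, in opposite directions, and their promoters are shown for that reason. Each sequence is the 250 bases before the start of the gene in RefSeq (GRCm38.p6), at chr15:13173676-13173925 for Cdh6 on the minus strand and chr15:16728665-16728914 for Cdh9 on the plus strand. For Cdh9 the RefSeq start lies inside the GENCODE span given above, which begins at 16728756. Most of the Cdh9 sequence therefore lies within the gene as GENCODE places it, whereas the Cdh6 sequence lies wholly before its gene. Capitals mark E-boxes, read as CANNTG on either strand.
Cdh6: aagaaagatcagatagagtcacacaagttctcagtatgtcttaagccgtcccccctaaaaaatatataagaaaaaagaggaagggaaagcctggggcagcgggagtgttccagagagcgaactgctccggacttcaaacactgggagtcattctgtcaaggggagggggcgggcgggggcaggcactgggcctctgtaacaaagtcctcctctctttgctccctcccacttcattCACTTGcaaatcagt
Cdh9: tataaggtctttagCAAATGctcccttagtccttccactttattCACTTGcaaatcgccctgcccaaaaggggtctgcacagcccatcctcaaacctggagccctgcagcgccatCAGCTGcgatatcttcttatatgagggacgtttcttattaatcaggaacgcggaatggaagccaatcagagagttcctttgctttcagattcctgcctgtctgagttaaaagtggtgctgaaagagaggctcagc

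The Cdh6 promoter held 1 E-box and that of Cdh9 held 3. Of all 32851 RefSeq promoter windows of 300 bases, 72.3% held at least 1. The longest run of letters that both promoters share, on the gene's own strand, was the 15 bases attCACTTGcaaatc, which span 1 of these E-boxes, and only 2 of the 32851 windows held that run on either strand, those of Cdh6 and Cdh9. The run was looked for after the sequences had been seen, and it is a match of letters that was not compared with known sites. Among the 28 genes, 21 had a promoter in the table.

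Most of these genes differed more between neuron classes than genes in general. The distance from the highest to the lowest of the 6 neuronal class means was a median of 2.74 on the log2 scale, with 1 CPM added, over the 27 members with enough UMIs, and 0.81 over 16624 genes. At least 2 log2 units separated the extremes for 19 of the 27 (70.4%), against 17.7% of genes. Between the 4 libraries within a class the median range was 0.38 for the members and 0.38 for all genes. The members were also counted more deeply, with a median of 28148 UMIs over the classified nuclei for the 27 tested against 3299 for the 16107 genes tested. The 27 tested hold Cdh19 in place of Cdh15, which is among the 27 with a range. The part of depth in the wider range was not tested.

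**Figure D1:**
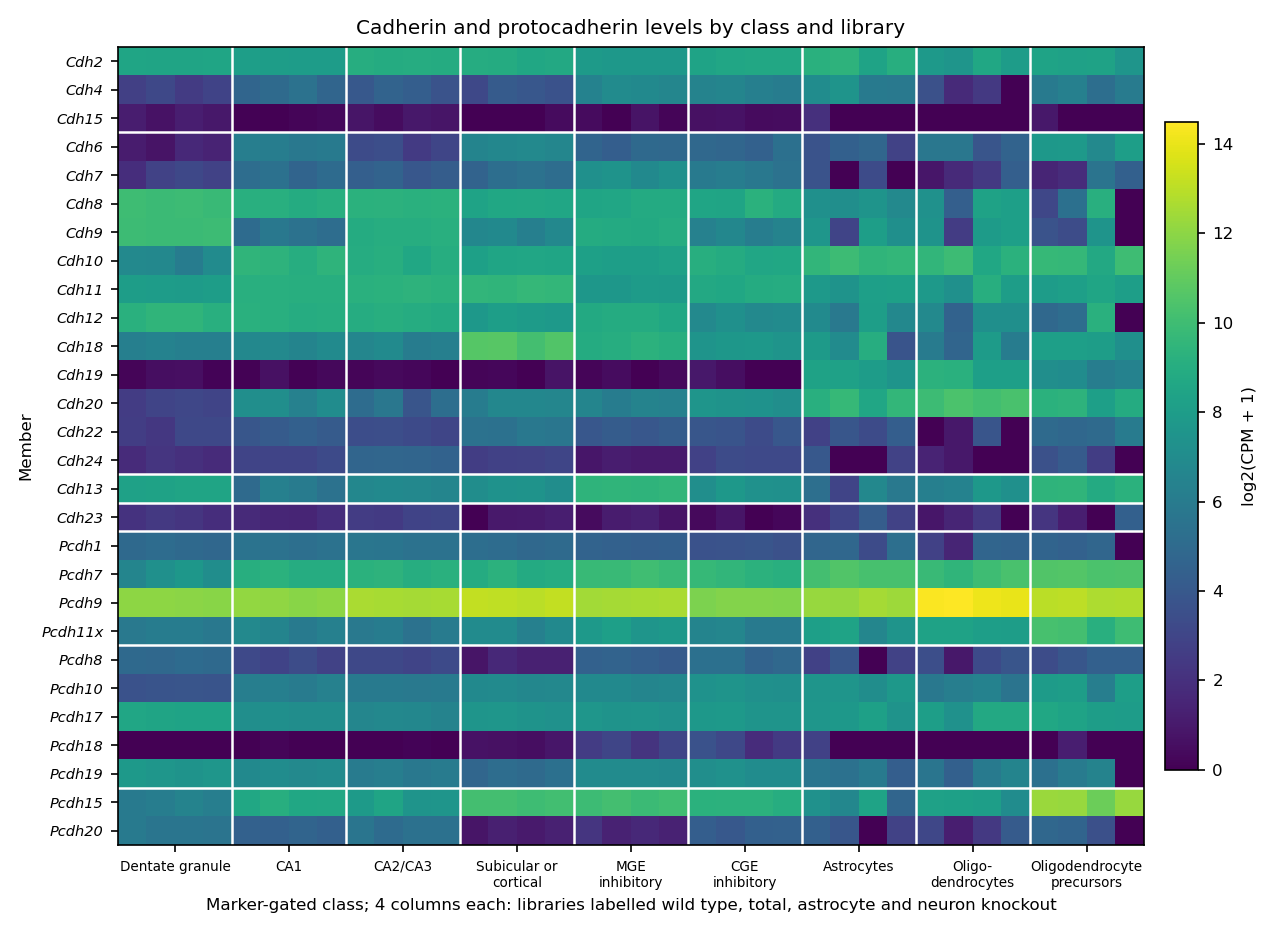
Level of each of the 28 genes, as log2(CPM + 1), in 9 marker-defined classes (blocks of 4 columns, 1 column per library); rows are grouped into type I cadherins, type II cadherins, T-cadherin, Cdh23, delta-1 and delta-2 protocadherins and the other 2 protocadherins. Within a neuronal block the 4 columns look alike, with a median range of 0.38 between libraries, while the same row changes between blocks, with a median range of 2.74.

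Each of the 6 named neuronal classes led for some members, and CA1 for 1. Dentate granule neurons had the highest mean level of 7 members, subicular or cortical neurons of 6, MGE neurons of 5, CA2/CA3 and CGE neurons of 4 each and CA1 neurons of Cdh10 alone. For 17 of these 27 the leading class did not overlap with the next class in any library. No share over all genes was taken for this count, so it describes the members only. Cdh19 had almost no UMIs in neurons and is not among these 27. Cdh15, the M-cadherin of muscle, is 1 of the 7 led by granule neurons. It stayed under 2 CPM in every neuronal sum and was not tested in the contrasts below.

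Dentate granule and CA1 pyramidal neurons are the first and the last principal cells of the hippocampal circuit, and 16 of the 27 members tested differed between them (59.3%, edgeR's quasi-likelihood test with the library as a block, Benjamini-Hochberg adjusted p under 0.05 and at least 2-fold), against 19.6% of all 16107 genes. Lower levels in granule neurons were more common, with 11 members lower (11.3% of all genes) and 5 higher (8.31% of all genes). Type II cadherins, 12 of the 27 tested, made up 7 of the 11, Cdh6, Cdh7, Cdh10, Cdh11, Cdh20, Cdh22 and Cdh24, and only Cdh9 of this group was higher. Adjusted p-values of the 16 from this edgeR test ran from 1.5e-22 for Pcdh10 to 3.6e-08 for Cdh11. All 16 moved the same way in 4 of 4 libraries with no overlap. The calls come from the same libraries, so this describes them and adds no support.

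Cdh9, a type II cadherin known for its role at the synapse from granule cells to CA3, stood at 981, 943, 942 and 966 CPM in granule neurons. In CA1 neurons it stood at 32.4, 54.4, 42.7 and 35.7 CPM, below every granule value, and the log2 difference was 4.47 (SE 0.41, edgeR adjusted p = 1.8e-11, n = 4 libraries). Cdh13, T-cadherin, which is held to the membrane by a lipid anchor and has no tail inside the cell, was at 311, 328, 354 and 353 CPM in granule and 31.0, 79.5, 64.4 and 43.2 CPM in CA1 neurons. That difference was 2.62 (SE 0.17, edgeR adjusted p = 4.9e-15), and its CA1 level varied more between libraries than its granule level.

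A further 3 protocadherins were higher in granule neurons, 2 of the delta-2 group and Pcdh20. Pcdh8, a protocadherin that neuronal activity is known to induce, had 30.0, 28.9, 32.4 and 29.8 CPM in granule and 8.02, 6.40, 9.16 and 6.35 CPM in CA1 neurons, a log2 difference of 1.96. Pcdh17 had 382, 349, 337 and 337 CPM against 140, 149, 139 and 135 CPM, a difference of 1.27. Pcdh20 had 61.6, 48.1, 49.4 and 47.1 CPM against 21.9, 20.9, 24.3 and 20.8 CPM, a difference of 1.18. In each of these the lowest granule library lay above the highest CA1 library.

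Cdh6 differed the opposite way to Cdh9. In granule neurons it was close to absent, at 1.15, 0.691, 2.13 and 1.68 CPM, which came from 17, 11, 26 and 20 UMIs. In CA1 neurons it reached 71.8, 69.7, 54.3 and 62.3 CPM, so that granule neurons were lower by 5.60 on the log2 scale (SE 0.24, edgeR adjusted p = 2e-20). Cdh20, another type II cadherin, behaved alike, at 5.05, 6.72, 7.62 and 6.99 CPM in granule and 142, 140, 82.3 and 130 CPM in CA1 neurons, and fell by 4.27. The library labelled astrocyte knockout had the lowest CA1 level of both genes.

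Next in size among the members lower in granule neurons were Cdh10, Pcdh15, Pcdh10 and Cdh7. Cdh10 had 113, 106, 67.9 and 124 CPM against 714, 650, 511 and 687 CPM in CA1 (log2 difference -2.70). Pcdh15, which with Cdh23 forms the tip link of sensory hair cells, had 59.5, 69.6, 88.0 and 71.3 CPM against 397, 538, 390 and 410 CPM (-2.63). Pcdh10, a delta-2 protocadherin, had 11.5, 12.4, 13.4 and 12.5 CPM against 71.6, 75.3, 64.2 and 80.5 CPM (-2.60, SE 0.09), and Cdh7 had 2.76, 6.21, 7.86 and 6.23 CPM against 35.0, 41.0, 24 and 32.7 CPM (-2.59). Granule and CA1 sums did not overlap for any of them. The other 5 lower members, Cdh4, Pcdh7, Cdh22, Cdh24 and Cdh11, differed by -2.38 to -1.13. With every nucleus thinned to 1000 UMIs the call of Cdh24 was lost (log2 difference -0.55, edgeR adjusted p = 0.28).

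**Figure D2:**
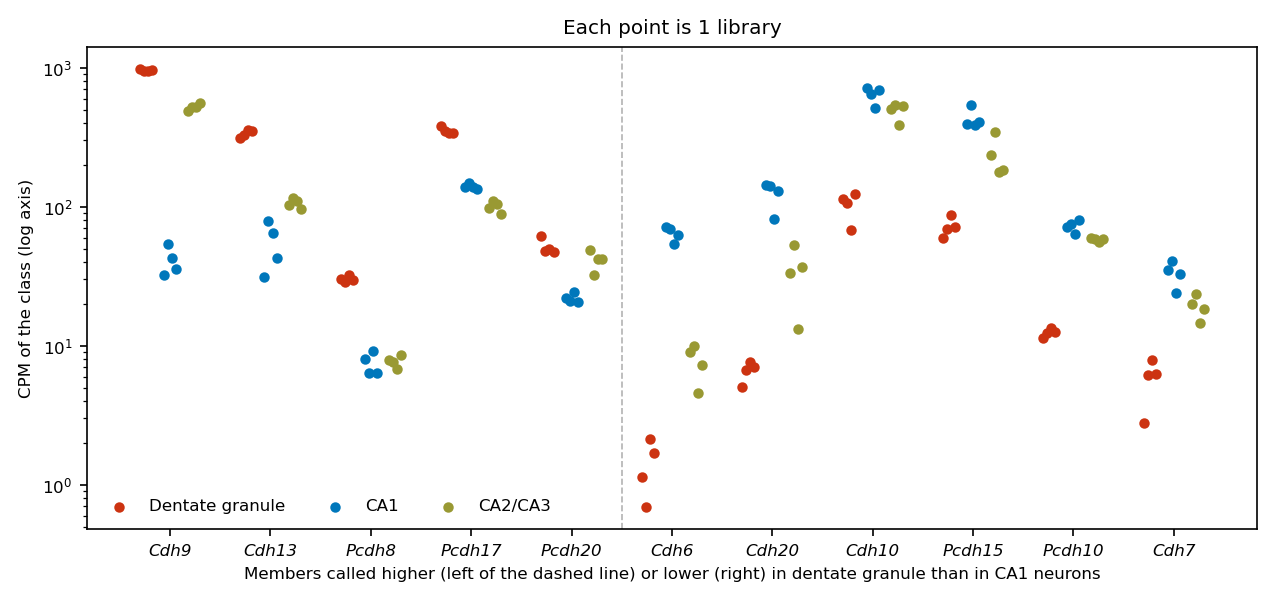
CPM on a log axis in dentate granule, CA1 and CA2/CA3 neurons for the 5 members called higher and the 6 with the largest fall in granule against CA1 neurons; each point is 1 of 4 libraries. Red granule points and blue CA1 points do not overlap for any of the 11 genes, and Cdh9 in CA2/CA3 neurons (487 to 556 CPM) sits between its CA1 level and its granule level of 942 to 981 CPM.

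Members outside the rule included Cdh2 and Cdh8. Cdh2, N-cadherin, had 370, 354, 351 and 362 CPM in granule and 279, 263, 255 and 256 CPM in CA1 neurons, a log2 difference of 0.40 that passed on p (edgeR adjusted p = 0.0075) and not on fold. Cdh8, a type II cadherin also known from the mossy fibres of granule cells, had 994, 935, 980 and 895 CPM against 565, 567, 475 and 551 CPM (0.76, edgeR adjusted p = 0.022). Cdh12 and Pcdh9 had libraries that overlapped between the classes.

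Neurons of CA2 and CA3 lie between granule and CA1 neurons in the circuit, and 5 of 27 members (18.5%) differed from CA1 by the same rule, against 11.5% of all genes. Of these 3 were higher (6.21% of all genes) and 2 lower (5.3%). Cdh9 was higher, at 487, 519, 519 and 556 CPM against the CA1 values above (log2 difference 3.63, SE 0.40, edgeR adjusted p = 2.6e-09). Cdh24 was higher at 25.5, 26.2, 25.2 and 22.3 CPM against 6.96, 6.71, 6.76 and 8.71 CPM (1.76). Cdh23, the other tip link cadherin, was low in both classes, at 5.05, 4.53, 6.55 and 7.26 CPM against 2.27, 1.97, 1.80 and 2.77 CPM (1.39, edgeR adjusted p = 0.0001), and after thinning to 1000 UMIs per nucleus it had too few UMIs to be tested. No CA1 library reached a CA2/CA3 library for any of these.

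Cdh6 and Cdh20 were lower in CA2/CA3 neurons. Cdh6 had 8.97, 9.97, 4.55 and 7.26 CPM, lower than in CA1 by 3.09 log2 units (log2 difference -3.09, SE 0.19, edgeR adjusted p = 2.7e-15). Cdh20 had 33.5, 52.8, 13.3 and 36.7 CPM, a difference of -1.89, and its 4 CA2/CA3 libraries were spread over a wider range than those of Cdh6 relative to their level. The count of 5 depended on the libraries and on the processing. It was 6 without the wild-type library or without that labelled astrocyte knockout. RLE scaling, DESeq2 and leaving out the filter also gave 6. Without the library labelled total knockout 9 members were called, adding Cdh4, Cdh13, Cdh22 and Pcdh15, and with the stricter marker rule 9 were called, adding Cdh4, Cdh13, Cdh22 and Pcdh19. In the main fit those 5 genes had differences of -0.87, 0.99, -0.94, -0.90 and -0.93 for Cdh4, Cdh13, Cdh22, Pcdh15 and Pcdh19, just inside the 2-fold limit.

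The neighbours on chromosome 15 had different profiles over the neuronal classes. Cdh6 was highest in subicular or cortical neurons (90.2, 105, 113 and 99.3 CPM) and lowest in granule neurons, while Cdh9, next to it, was highest in granule neurons and lowest in CA1 neurons. Cdh10 was highest in CA1 and lowest in granule neurons. Cdh12 had libraries that overlapped between granule and CA1 and between CA1 and CA2/CA3 neurons, and it was lowest in CGE neurons. Cdh18 had 1652, 1705, 1152 and 1493 CPM in subicular or cortical neurons, above all other neuronal sums, and 74.3, 83.7, 74.1 and 74.6 CPM in granule neurons.

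**Figure D3:**
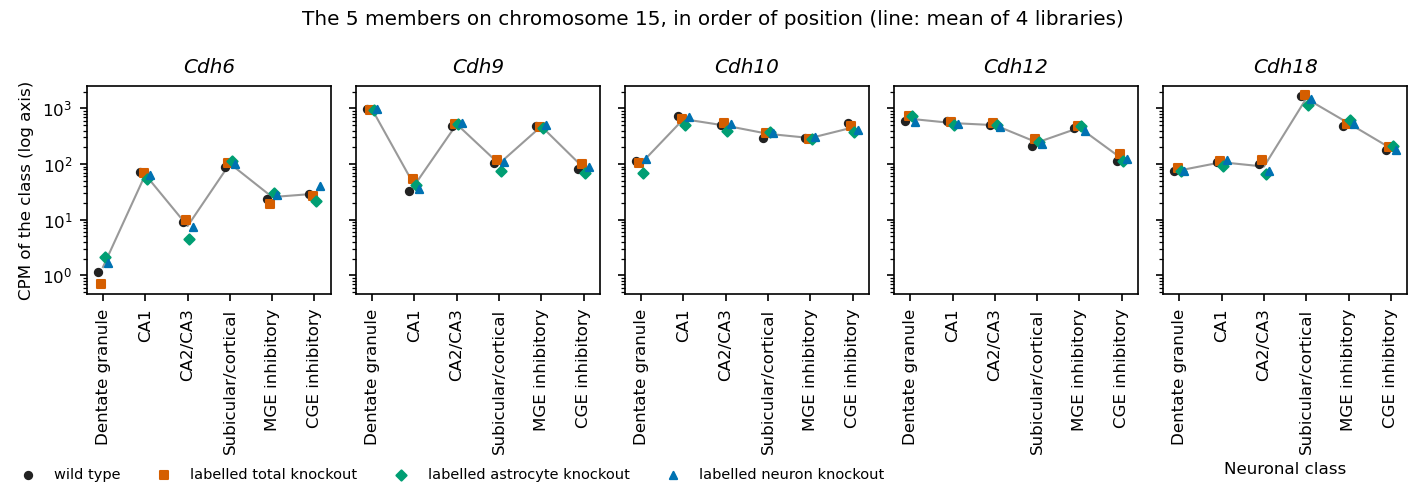
CPM on a log axis of Cdh6, Cdh9, Cdh10, Cdh12 and Cdh18, which follow each other on chromosome 15, in 6 neuronal classes; points are the 4 libraries and the line joins their means. Cdh6 and Cdh9 move in opposite directions from granule to CA1 neurons, and Cdh18 peaks at 1152 to 1705 CPM in subicular or cortical neurons.

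Inhibitory neurons, as the mean of the MGE and CGE classes, differed from excitatory neurons, as the mean of granule, CA1 and CA2/CA3 without the subicular or cortical class, in 15 of 27 members (55.6%), against 23.4% of all genes. In inhibitory neurons 10 were higher (12.6% of all genes) and 5 lower (10.7%). Adjusted p-values of the 15 from edgeR's quasi-likelihood test ran from 2.5e-24 for Pcdh10 to 8.2e-09 for Cdh18. Below, excitatory sums are those of these 3 classes unless the subicular or cortical class is named.

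Pcdh18, a delta-2 protocadherin, had 0 UMIs in granule neurons of any library and at most 0.158 CPM in CA1 or CA2/CA3 neurons. It was detected at 5.04, 7.06, 3.55 and 7.25 CPM in MGE and 11.4, 7.71, 2.56 and 4.59 CPM in CGE neurons (edgeR adjusted p = 3e-17), a low level in all 8 sums, and after thinning it had too few UMIs to be tested. Cdh4, R-cadherin of the type I group, had 86.0, 127, 118 and 101 CPM in MGE and 87.4, 95.7, 75.3 and 68.0 CPM in CGE neurons, against 4.83 to 43.9 CPM in the excitatory sums, and the log2 difference was 2.50 (SE 0.10, edgeR adjusted p = 2.2e-21). Cdh7 was higher by 2.45, with every inhibitory library above every excitatory one. Pcdh15, Cdh20 and Cdh18 were higher by 1.88, 1.84 and 1.69. Of these only Cdh18 had no overlap with the 3 classes, and its subicular or cortical sums of 1152 to 1705 CPM lay above every MGE (481 to 621 CPM) and CGE sum. The CA1 sums of Cdh20 and Pcdh15 reached into the inhibitory range. So did their subicular or cortical sums, of 65.8 to 105 CPM for Cdh20 and 1004 to 1134 CPM for Pcdh15.

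The other members higher in inhibitory neurons, Pcdh10, Cdh6, Cdh13 and Pcdh7, were higher by 1.68 to 1.03. Of these only Pcdh10 had no overlap with the 3 excitatory classes, and its subicular or cortical sums of 103 to 121 CPM overlapped with its MGE sums of 96.5 to 118 CPM. The Cdh6 sums in CA1 (54.3 to 71.8 CPM) and in subicular or cortical neurons lay above its inhibitory sums of 19.3 to 39.7 CPM, and its granule and CA2/CA3 sums below them. Pcdh7, a delta-1 protocadherin at the edge of the rule, was not called without the wild-type library (0.95) or with doublets kept (0.97).

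Among the members lower in inhibitory neurons, Cdh23 had 0.336, 1.13, 1.42 and 0.684 CPM in MGE and at most 0.787 CPM in CGE neurons, against 1.80 to 7.26 CPM in the excitatory sums (log2 difference -2.70). In subicular or cortical neurons it had 0 to 1.36 CPM, within the inhibitory range. It too had too few UMIs to be tested after thinning. Pcdh20 differed by -2.60, Cdh24 by -1.61 and Cdh12 by -1.38, and in each of these 3 the CGE or MGE sums overlapped with some excitatory sums. In subicular or cortical neurons Pcdh20 had 0.775 to 1.53 CPM, below every MGE (1.64 to 3.69 CPM) and CGE sum. Cdh12 had 214 to 280 CPM in that class, below every MGE sum (394 to 487 CPM) and above every CGE sum. Cdh24 had 5.11 to 7.29 CPM in that class, which overlapped with its CGE sums. Pcdh1, a delta-1 protocadherin, had 23.0, 21.5, 19.5 and 20.4 CPM in MGE and 11.7, 11.8, 13.1 and 11.1 CPM in CGE neurons, below the 27.6 to 51.4 CPM of the excitatory sums (log2 difference -1.44, SE 0.08).

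The MGE and the CGE are the main developmental origins of hippocampal interneurons, and 10 of 27 members (37.0%) differed between them, against 11.1% of all genes. Members higher in MGE neurons were Cdh9, Cdh13, Cdh12, Pcdh11x, Cdh18 and Cdh7 (4.88% of all genes were higher). Cdh9 had 474, 469, 451 and 509 CPM in MGE and 81.3, 102, 68.5 and 89.7 CPM in CGE neurons (log2 difference 2.43, SE 0.38, edgeR adjusted p = 4.4e-06). Cdh13 had 685, 703, 672 and 747 CPM against 142, 214, 159 and 152 CPM (2.06), and Cdh12 had 440, 487, 478 and 394 CPM against 111, 154, 112 and 124 CPM (1.81). The libraries of the classes did not overlap for any of the 10, again a description of the libraries that made the calls.

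Pcdh11x, an X-linked delta-1 protocadherin, had 229, 286, 183 and 214 CPM in MGE and 90.6, 100.4, 60.5 and 59.5 CPM in CGE neurons (1.53). Cdh18 had 481, 527, 621 and 532 CPM against 180, 199, 208 and 179 CPM (1.47, edgeR adjusted p = 0.00061). Cdh7 had 155, 175, 116 and 155 CPM against 59.9, 68.1, 54.1 and 43.0 CPM (1.40). These 3 genes had the smaller differences of the 6.

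Members lower in MGE than in CGE neurons were 4 (6.2% of all genes were lower). Pcdh20 had 3.69, 1.64, 2.13 and 1.64 CPM against 19.3, 14.8, 21.1 and 21.9 CPM (log2 difference -3.14, SE 0.24, edgeR adjusted p = 7.2e-13). Cdh24 had 0.839, 1.23, 1.07 and 1.09 CPM against 5.85, 8.97, 8.01 and 8.35 CPM (-2.89). Cdh11 had 202, 199.5, 246 and 234 CPM against 422, 391, 488 and 505 CPM (-1.06), and Cdh20 had 96.7, 67.6, 86.9 and 82.7 CPM against 184, 172, 166 and 144 CPM (-1.03). The last call was lost without the library labelled total knockout (-0.92) and with doublets kept (-0.93), and that of Cdh11 was lost after thinning (-0.95).

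Oligodendrocytes, the myelinating glia, differed from the mean of the 5 neuronal classes above in 18 of 27 members (66.7%), against 37.2% of all genes. Higher were 5 members (14.5% of all genes), 3 of them type II cadherins. Cdh19, known from glia of the peripheral nerve, had 625, 593, 289 and 288 CPM in oligodendrocytes and at most 0.877 CPM in any of the 6 neuronal classes (edgeR adjusted p = 3.7e-36). It was also present in astrocytes at 326, 314, 251 and 183 CPM and in precursors at 144, 129, 68.2 and 84.2 CPM, so every glial sum lay above every neuronal sum.

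Cdh20 had 989, 1314, 1079 and 1300 CPM in oligodendrocytes (log2 difference 4.26, SE 0.15, edgeR adjusted p = 1.7e-23), above the range of 5.05 to 184 CPM in the 5 neuronal classes and of 225 to 352 CPM in the inhibitory nuclei of neither type. Astrocytes had 377 to 830 CPM and precursors 294 to 656 CPM of Cdh20, also above the 5 neuronal classes and below every oligodendrocyte sum. Pcdh9, a delta-1 protocadherin with a long gene of 877270 bases, had 21302, 22922, 17558 and 16553 CPM against 3171 to 6327 CPM in the 5 neuronal classes (1.84, SE 0.11). Pcdh11x was higher by 1.5, with libraries that overlapped with some neuronal sums. Cdh6 was called higher by 1.55 against the neuronal mean, but its highest oligodendrocyte sum, 52.1 CPM, lay below every CA1 sum, and in the library labelled astrocyte knockout its difference was 0.01.

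Lower in oligodendrocytes were 13 members (22.7% of all genes). The 6 with the largest fall were Cdh7, Cdh22, Cdh4, Cdh24, Cdh12 and Pcdh1, by -3.50 to -2.35. Cdh12 had 110, 22.4, 147 and 146 CPM against 111 to 723 CPM in the neuronal sums, Cdh7 had 0.839, 2.28, 4.31 and 19.9 CPM against 2.76 to 175 CPM, and Pcdh1 had 5.87, 1.83, 25.9 and 23.2 CPM against 11.1 to 51.4 CPM. Cdh4 had 10.9, 2.28, 4.31 and 0 CPM, Cdh22 had 0, 0.913, 12.9 and 0 CPM and Cdh24 had 1.68, 0.913, 0 and 0 CPM. The library labelled total knockout, with 1432 of the 1949 oligodendrocytes, was the lowest for Cdh12 and Pcdh1. Levels of Cdh7, Cdh4, Cdh22 and Cdh24 rested on few UMIs in most libraries.

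Neuronal RNA was present in these sums. All 6 excitatory marker genes were detected in the oligodendrocytes of every library, at a summed 101, 31.5, 242 and 112 CPM, while the same sum was 472 to 514 CPM in granule neurons. The libraries labelled astrocyte and neuron knockout had 56 and 76 oligodendrocytes, and Cdh9 in oligodendrocytes was at 175, 5.02, 250.2 and 288 CPM. Cdh9, Cdh12 and Pcdh1 were lowest in the library labelled total knockout, which had the least of this RNA. For Cdh7, Cdh4, Cdh22 and Cdh24 the lowest values lay in other libraries, but they were 0 or rested on few UMIs. The oligodendrocyte sums held 1192245, 2190134, 231798 and 302248 UMIs, so these values do not rank the libraries. The part of neuronal RNA in the falls was not tested. Cdh9, Cdh13 and Cdh18, the 3 smallest falls (-1.05, -1.03 and -1.36), were lower in 2, 3 and 3 of 4 libraries. They lost the call without the wild-type library (-1.21, -0.88 and -1.22, with edgeR adjusted p of 0.068, 0.0023 and 0.0504) and without the library labelled total knockout (-0.35, -0.78 and -0.83). Without the latter Pcdh8 was lost too, leaving 14 members. With doublets kept Cdh7 and Cdh22 were lost as well, leaving 12. DESeq2 lost Cdh9, Cdh13 and Cdh18 (-0.67, -0.79 and -0.91), leaving 15 members, and RLE scaling lost Cdh9 and Cdh13, leaving 16.

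Oligodendrocyte precursors were outside the fit, since 1 library had 17 of them. Pcdh15 reached 5001, 4851, 2403 and 4945 CPM there, against at most 1147 CPM in any sum of the 6 named neuronal classes and 1293 to 1589 CPM in the inhibitory nuclei of neither eminence type. Pcdh11x reached 1236, 1150, 556 and 1031 CPM and Pcdh7 reached 1477, 1580, 1353 and 1389 CPM. Pcdh7 did not set precursors apart, since its astrocyte sums of 1120 to 1479 CPM overlapped with these. The library labelled astrocyte knockout had the lowest precursor value of all 3 genes, with 35 nuclei. Its precursors also held the most excitatory marker RNA, at 399 CPM against 27.6 to 63.1 CPM in the others.

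Over the 4 contrasts between neuronal classes 22 of 27 members were called in at least 1, against 36.1% of all genes. The 5 that were not are Cdh2, Cdh8, Cdh19, Pcdh9 and Pcdh19. With oligodendrocytes added 26 of 27 were called, against 53.2% of all genes, and Cdh2 alone was in none. Cdh2 had 207 to 510 CPM over the 24 neuronal sums.

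Genes with profiles most like those of the leading members were sought among the 28 by correlation of log2 levels over 36 sums of the 9 fitted classes, which share libraries and depth. Cdh6 was most like Pcdh15 (Pearson's r 0.737), Pcdh10 (0.634) and Cdh20 (0.542). Cdh9 was most like Cdh13 (0.661), Cdh12 (0.632) and Cdh8 (0.586), and Cdh20 was most like Pcdh7 (0.764), Cdh10 (0.719) and Pcdh11x (0.705). These are descriptions without a test.

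Genes of the proteins that cadherins work with were read by the same rule. Of 14 genes of catenins, plakophilins, vinculin, nectins and afadin, none was higher and 2 were lower in granule than in CA1 neurons (19.6% of all genes were called in either direction), Vcl (vinculin, which ties catenins to actin) by -1.82 and Nectin3 by -1.91. Between CA2/CA3 and CA1 neurons 2 were higher and 1 lower (11.5% of all genes), but Nectin3, 1 of those higher, was a marker used to define CA2/CA3 nuclei. Between inhibitory and excitatory neurons Ctnna3 (alpha-T-catenin) was higher by 1.90 and Pkp2 (plakophilin) lower by -4.45 (23.4% of all genes were called). Nectin3 is not read in that contrast, since the excitatory mean holds the CA2/CA3 sums that it helped to define. Between MGE and CGE neurons only Nectin3 passed (11.1% of all genes). Nuclei of every class had to lead the next class, CA2/CA3 included. Nectin3 therefore took part in the marker rule here and in granule against CA1 neurons too. In oligodendrocytes 5 were higher, among them Ctnna3 (4.08) and Ctnna1 (3.00), and 3 lower, against 37.2% of all genes.

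Other members of the cadherin superfamily were divided in both directions. Of 15 genes tested of 16, among Fat, Dachsous, Celsr, calsyntenin, desmosomal and Cdhr genes, 4 were higher and 5 lower in granule than in CA1 neurons (19.6% of all genes were called), and 3 and 3 in CA2/CA3 (11.5%). Higher and lower were 5 and 4 in inhibitory against excitatory neurons (23.4%), 3 and 2 in MGE against CGE neurons (11.1%) and 1 and 10 in oligodendrocytes against neurons (37.2%). Clstn2, a calsyntenin of synapses, was higher in granule neurons, at 1512, 1531, 1645 and 1444 CPM against 664, 741, 695 and 644 CPM in CA1 (log2 difference 1.10), while Fat3, a giant cadherin that shapes dendrites, was lower at 329, 373, 320 and 332 CPM against 713, 648, 576 and 677 CPM (-1.004).

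Between genotypes most members stayed within 1.5-fold of wild type. Ratios of each knockout library to wild type were formed in 5 neuronal classes for the 122 member and class pairs with at least 100 UMIs over the 4 libraries. Past 1.5-fold were 8 pairs (6.56%) in the library labelled total knockout, against 7.45% of all gene and class pairs. In the library labelled astrocyte knockout there were 14 (11.5%) against 6.83%, and in that labelled neuron knockout 4 (3.28%) against 7.33%. Members were counted more deeply than genes in general, as given above, and the part of depth in these shares was not tested. The median log2 ratio of the 122 pairs was 0.06, -0.07 and -0.03, and that of all pairs -0.04, -0.05 and -0.02. Since all ratios share the wild-type library, they are not independent. Knockout libraries set against each other differed past 1.5-fold in 20 of the 122 pairs for astrocyte to total (7.3% of all gene and class pairs), 12 for neuron to total (5.13%) and 11 for neuron to astrocyte (4.69%).

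**Figure D4:**
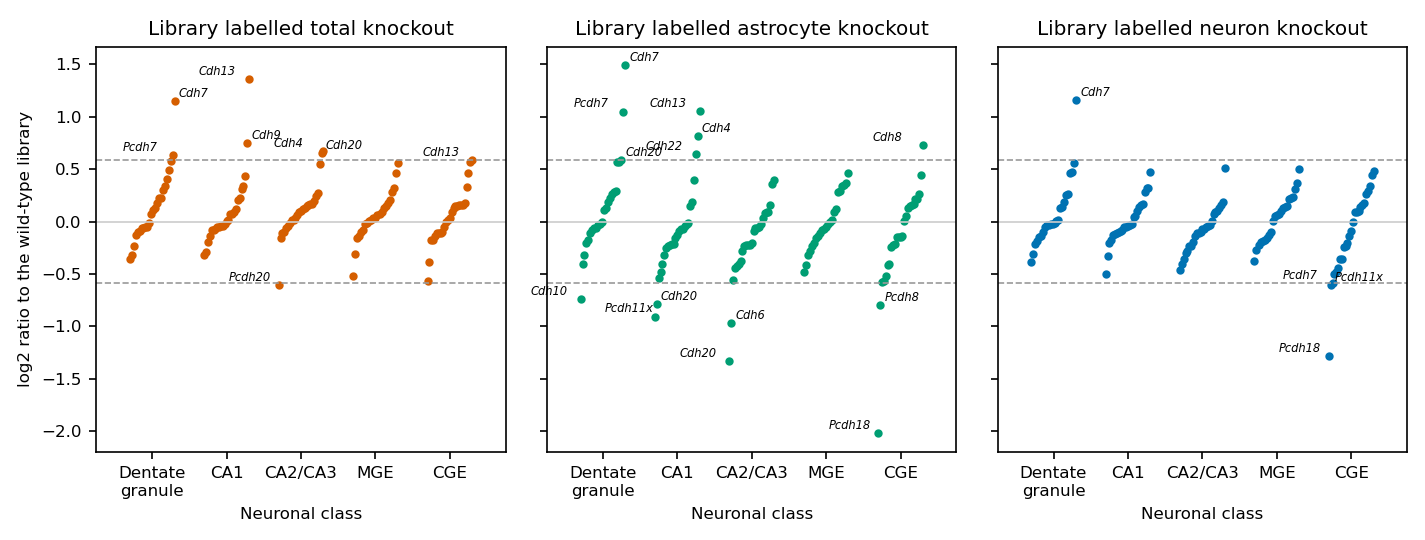
Log2 ratio of CPM in each knockout library to the wild-type library, for every member with at least 100 UMIs in the class, in 5 neuronal classes; each point is 1 gene, sorted by ratio within a class, and dashed lines mark 1.5-fold. Most points lie between the lines, and Cdh7 in granule neurons lies above the upper line in all 3 panels (1.15, 1.49 and 1.16).

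Cdh7 in granule neurons was past 1.5-fold in the same direction in all 3 knockout libraries, as were 1.24% of all gene and class pairs. It had 41, 99, 96 and 74 UMIs, or 2.76, 6.21, 7.86 and 6.23 CPM. The wild-type library alone was low, and the log2 ratios were 1.15 (95% interval 0.63 to 1.73), 1.49 (0.97 to 2.07) and 1.16 (0.60 to 1.76), where intervals cover counting error only. In subicular or cortical neurons Cdh7 had 23.5, 36.9, 42.9 and 35.4 CPM and Cdh20 had 65.8, 104, 105 and 101 CPM, also lowest in wild type. In CA1, MGE and CGE neurons the wild-type value of Cdh7 lay within the range of the knockout libraries. Among male nuclei alone the granule ratio in the library labelled total knockout was 1.89.

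Cdh13 in CA1 neurons was the largest ratio in the library labelled total knockout, at 383 UMIs in wild type and 1007 UMIs there (1.36, interval 1.19 to 1.53). It was also past in the library labelled astrocyte knockout (1.05, interval 0.88 to 1.23), and the neuron knockout value of 43.2 CPM lay between. With the stricter marker rule the astrocyte knockout ratio was 0.46, under 1.5-fold. Cdh9 in CA1 neurons was at 54.4 CPM in the library labelled total knockout against 32.4 CPM in wild type (0.75), and at 0.46 after thinning. Both genes are high in granule neurons, whose 10 markers were all detected in the CA1 sums of every library, at a summed 378, 371, 341 and 339 CPM, against 5750 to 6054 CPM in granule neurons. The part of granule RNA in these ratios was not tested.

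In CA2/CA3 neurons Cdh20 moved apart in 2 knockout libraries. It had 265, 524, 146 and 283 UMIs, with a log2 ratio of 0.65 (interval 0.44 to 0.88) in the library labelled total knockout and -1.33 (interval -1.63 to -1.04) in that labelled astrocyte knockout. With the stricter marker rule the former was 0.05, and among male nuclei the latter was -0.84. The 8 CA1 markers summed to 268, 267, 221 and 234 CPM in these CA2/CA3 sums, lowest where Cdh20 was lowest. The part of CA1-like nuclei in these values was not tested. Cdh4 in CA2/CA3 neurons was at 0.67 in the library labelled total knockout and at 0.33 with the stricter marker rule.

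Pcdh7 in granule neurons had 97.3, 151, 201 and 135 CPM, again lowest in wild type, and its ratio in the library labelled astrocyte knockout was 1.05 (interval 0.96 to 1.14). Among male nuclei alone it was 0.55. Pcdh18 in CGE neurons rested on few molecules, with 39 UMIs in wild type, 8 in the library labelled astrocyte knockout (-2.02, interval -3.46 to -1.04) and 22 in that labelled neuron knockout (-1.28, interval -2.14 to -0.52). In the library labelled neuron knockout CGE neurons also had Pcdh11x at 59.5 against 90.6 CPM (-0.61) and Pcdh7 at 564 against 849 CPM (-0.59). After thinning the former was -0.13, and among male nuclei the latter was -0.29. In the same library granule neurons had Cdh22 at 7.66 against 5.19 CPM (0.56).

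The X-linked members were read in female and male nuclei of the 3 libraries that held both, in 5 classes. Nuclei were called female by Xist and male by Y-linked genes. Pcdh19, whose loss of function causes an epilepsy of heterozygous females, had log2 ratios of female to male from -0.42 to 0.40 over the 15 pairs of class and library, with a median of -0.01. Pcdh11x had ratios from -0.74 to 0.87 with a median of 0.02, and 4 of its 15 were past 1.5-fold, against 2.16% of the values of all genes. The other members had a median of 0.01 and a wider range, -1.13 to 1.09, over 272 such values, of which 17 were past 1.5-fold.

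The direction of Pcdh11x was not the same in all libraries. In CA1 neurons it stood at 115 CPM in female and 78.6 CPM in male nuclei of the wild-type library (0.55, interval 0.37 to 0.73). In the library labelled neuron knockout it stood at 94.9 and 59.7 CPM (0.67, interval 0.46 to 0.87), and in that labelled astrocyte knockout at 38.3 and 64.0 CPM (-0.74, interval -0.996 to -0.48). How many animals of each sex a library pooled is not given, so sex and animal cannot be told apart. Among male nuclei alone the CGE ratio of Pcdh11x in the library labelled neuron knockout was 0.29, against -0.61 over all nuclei.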

How the data were processed

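Nuclear RNA of 4 libraries (1 per genotype) was counted by the authors, who deposited raw UMI counts (whole numbers, not normalized) for every gene of every barcode. The submitters' processing notes name Cell Ranger ARC 2.0.0 and mm10. Nuclei with at least 500 genes and at most 5% mitochondrial UMIs were kept and Scrublet doublets (scanpy 1.11.5, 0.8% per 1000 barcodes) removed, which left 8933, 23720, 10015 and 8646 nuclei.

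A nucleus joined a class with at least 3 of its markers, a mean marker level at least 1.5 times that of all nuclei and 1.5 times that of the next class (stricter: 4, 2 and 2). These limits were set after marker levels had been seen. Counts were summed per class and library. Classes were compared over the 4 libraries by edgeR 4.0.16 (R 4.3.3, TMM, filterByExpr, quasi-likelihood test, library as block, 36 sums of 9 classes, Benjamini-Hochberg over 16107 genes). Libraries pair the classes because each holds all of them. The p-values set a class difference against the spread of the gene over all 36 sums, from libraries that also differ in genotype. They do not measure how steady that difference was over these 4 libraries, which only the values per library show. The script was tested on simulated data. Genotypes had no test: ratios of CPM used a pseudocount of 1 count and exact conditional binomial intervals at 95% for counting error only.

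In each contrast up to 6 called members per direction were named, for each knockout library the 5 largest ratios whose interval excludes no change, and members past 1.5-fold the same way in all 3. Members and gene lists were chosen with earlier results of these data known. Alternatives were RLE scaling, DESeq2 1.42.0, no filter, no block, each library left out, doublets kept, the stricter rule, thinning to 1000 UMIs, male nuclei, TMM factors, a minimum of 20 UMIs and a fold of 2.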

Additional observations from a re-analysis of the deposited data

Results flagged for a closer look

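Cdh20 moved in opposite directions between neuronal classes of the library labelled astrocyte knockout. Its log2 ratio to wild type was 0.59 in dentate granule and 0.68 in subicular or cortical neurons, and -0.79 in CA1 and -1.33 in CA2/CA3 neurons. In granule and in subicular or cortical neurons wild type was also below the libraries labelled total and neuron knockout. With 1 library per genotype the difference between classes was not tested. The granule value rests on 75 UMIs in wild type and 93 in the knockout library.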

How the results depend on the processing

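Between dentate granule and CA1 neurons 16 members were called without each library in turn, and the range was 5 to 9 for CA2/CA3 against CA1, 14 to 16 for inhibitory against excitatory, 9 to 10 for MGE against CGE and 14 to 19 for oligodendrocytes against neurons. Without the replicate block the counts were 16, 5, 15, 10 and 16. The stricter marker rule gave 9 for CA2/CA3 against CA1. Past 1.5-fold in the library labelled total knockout were 13 of 128 pairs with a minimum of 20 UMIs (15.1% of all gene and class pairs) and 16 of 123 with doublets kept (8.62%). In that labelled neuron knockout they were 12 of 117 among male nuclei (8.57%) and 2 of 122 with TMM factors (7.02%). A fold of 2 left 2, 5 and 2 of 122 pairs in the total, astrocyte and neuron knockout, against 1.5%, 1.09% and 1.15% of all pairs. Pcdh11x in CGE neurons of the library labelled neuron knockout turned from -0.61 to 0.29 among male nuclei. The causes were not tested. Among values of single genes under an alternative, 742 kept direction, side and size, 26 no longer passed and 13 moved. Of the alternative counts, 67 stayed within 1.5 times the main one and 9 did not. Depth limits low genes such as Pcdh18, Cdh15 and Cdh23, and glia of 2 knockout libraries.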

Other observations

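In microglia-like nuclei, of which the libraries held 40, 73, 14 and 13, Cdh23 reached 52.5, 58.6, 52.6 and 122 CPM from 16, 13, 4 and 10 UMIs. In the 6 neuronal classes it reached at most 7.26 CPM. Nuclei with markers of medium spiny neurons, which are striatal, numbered 57, 810, 26 and 18. In these nuclei Pcdh15 had 1683, 303, 1446 and 1194 CPM, lowest in the library labelled total knockout, which held most of them, and Cdh18 had 935, 563, 791 and 847 CPM. Of the medium spiny nuclei of the other 3 libraries, 27, 23 and 16 met the marker rule but not its stricter form, and whether all these nuclei are of 1 type was not tested.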
